A study of Mus musculus with 9 samples.

Results

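The 6 mouse genes of the Ms4a family studied here (*Ms4a3*, *Ms4a4c*, *Ms4a6b*, *Ms4a6c*, *Ms4a6d* and *Ms4a7*) were measured on 9 one-colour microarrays. They were taken as 1 set because they belong to 1 gene family and had larger signals in one knockdown than in the other on these same arrays, so their changes are given as a description and without a test. Every probe whose transcript accession belongs to 1 of the 6 genes was used, which gave 7 probes of 41174 in all and 6 genes of 16535 that could be named. All 7 probes passed the filter on dim probes, as did 36585 of all probes.

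The cells were FDCPmix, a non-leukemic line of mouse haematopoietic progenitors that self-renews in IL-3 and can mature along several blood lineages. All 9 samples were kept in self-renewal conditions and carried a lentivirus. There were 3 groups of 3 samples: the empty vector (EV), a vector with shRNA against *Gata2* (labelled Gata2 shRNA, called *Gata2* KD) and a vector with shRNA against *Spi1*, the gene for PU.1 (labelled Pu1 shRNA, called *Pu.1* KD). Live GFP+ cells were sorted 5 days after transduction and 150 ng of total RNA was amplified and labelled with Cy3 for each array. The cell line is the only genotype of these samples. The study describes a gene-specific shRNA for *Gata2*, and the number of hairpins against *Pu.1* is not given in the sources used here. Each group was transduced as triplicate samples, and since nothing says that these came from separate cultures before transduction, p-values measure only the spread between the samples.

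A level is the log2 of a probe's background-subtracted signal minus the log2 of the 75th percentile of that array, so a level of 0 is the 75th percentile and 1 unit is a doubling. Between 80.4% and 89.6% of the spots of an array were well above background, and no spot was saturated. Each of the 3 slides held 1 array of each group. EV replicate 3 was the least like the other arrays, with a mean correlation across probes of 0.960. Several of the results it moved are also given without it. The targeted transcripts were checked first: the *Gata2* probe fell by 1.61 in *Gata2* KD (SE 0.23, adjusted p 0.00414 by limma over all tested probes) and the *Spi1* probe fell by 1.73 in *Pu.1* KD (SE 0.16, adjusted p 0.00178). *Spi1* also rose in *Gata2* KD, by 1.39 (SE 0.16, adjusted p 0.0012).

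Ms4a proteins are small membrane proteins that cross the membrane several times. The family is best known for *Ms4a1*, which encodes the B cell antigen CD20, and *Ms4a2*, which encodes the beta chain of the high-affinity IgE receptor of mast cells and basophils. *Ms4a3* is a marker of granulocyte and monocyte progenitors, whereas *Ms4a4c*, *Ms4a6c*, *Ms4a6d* and *Ms4a7* are mostly known from monocytes and macrophages. The genes lie side by side in a cluster on mouse chromosome 19. PU.1 is an ETS factor that drives myeloid genes, and GATA2 is a zinc finger factor of stem cells, progenitors and mast cells.

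The promoters of the 6 genes were read because the perturbed genes encode transcription factors with known DNA motifs. Promoter sequence was on hand for 5 of the 6 genes, from RefSeq on GRCm38.p6, and the gene without an entry was *Ms4a6d*. The 250 bases before the annotated start are shown, 5′ to 3′ on the strand of the gene, for the 4 genes with a single entry. Capitals mark matches to the short ETS core GGAAGT, written ACTTCC where it lies on the other strand.
Ms4a3 (chr19:11640852-11641101, minus strand): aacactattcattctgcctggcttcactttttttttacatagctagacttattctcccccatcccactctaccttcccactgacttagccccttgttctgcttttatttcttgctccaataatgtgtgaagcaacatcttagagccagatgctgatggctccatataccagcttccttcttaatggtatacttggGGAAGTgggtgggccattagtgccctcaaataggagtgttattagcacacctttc
Ms4a6b (chr19:11518309-11518558, plus strand): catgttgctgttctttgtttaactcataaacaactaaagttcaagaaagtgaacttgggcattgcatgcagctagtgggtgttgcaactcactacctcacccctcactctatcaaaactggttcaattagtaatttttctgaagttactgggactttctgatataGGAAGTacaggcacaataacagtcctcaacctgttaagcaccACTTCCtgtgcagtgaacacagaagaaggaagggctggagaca
Ms4a6c (chr19:11469118-11469367, plus strand): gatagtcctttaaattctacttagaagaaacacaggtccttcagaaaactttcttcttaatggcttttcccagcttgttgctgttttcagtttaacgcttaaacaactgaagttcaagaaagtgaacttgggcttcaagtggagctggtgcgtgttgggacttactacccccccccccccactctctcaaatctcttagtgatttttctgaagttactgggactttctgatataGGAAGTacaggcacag
Ms4a4c (chr19:11407411-11407660, plus strand): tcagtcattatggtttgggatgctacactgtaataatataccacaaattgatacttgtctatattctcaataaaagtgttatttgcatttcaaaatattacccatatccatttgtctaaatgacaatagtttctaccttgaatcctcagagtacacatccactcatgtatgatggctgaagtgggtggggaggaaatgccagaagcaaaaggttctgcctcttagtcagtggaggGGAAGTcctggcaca

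The core GGAAGT on either strand was in a promoter of each of the 5 genes, and it was in 19.7% of 32851 mouse promoters of the same length. The 5 genes are counted by any of their 6 entries, whereas that share is counted by entry. In *Ms4a4c* it lay 10 to 15 bases before the start and in *Ms4a6c* 11 to 16 bases before it. *Ms4a7* has 2 entries in the table. The upstream one (chr19:11336147-11336396, minus strand) held the core 10 to 15 bases before its start on the opposite strand, and the other one held none. *Ms4a3* had 1 match, 50 to 55 bases before the start, and *Ms4a6b* had 2, at 80 to 85 bases and, on the opposite strand, at 38 to 43 bases. Among the other Ms4a genes, 4 of 13 with a promoter entry held the core (*Ms4a12*, *Ms4a19*, *Ms4a4b* and *Ms4a4d*).

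The windows of *Ms4a6b* and *Ms4a6c* shared an unbroken run of 48 bases that contained the core.
Run shared by Ms4a6b and Ms4a6c: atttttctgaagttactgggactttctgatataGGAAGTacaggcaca
This run ended 2 bases before the start of *Ms4a6c* and 71 bases before that of *Ms4a6b*, so the same letters sat at different distances from the annotated starts.

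The other motifs searched on both strands were rarer in these windows. The GATA motif AGATAA (9.99% of all promoters), the C/EBP motif TTGCNNAA (9.56%), the longer PU.1 core GAGGAAGT (2.44%), which contains the short one, and the ETS and IRF composite element (2.30%) were in none of the 5 genes. A second GATA motif, TGATAA (7.94%), was in the downstream *Ms4a7* entry alone. The IgE receptor gene *Ms4a2* was among 4 of the 13 other Ms4a genes with AGATAA. A match is a string of letters and not a measured binding site, and its absence says only that the letters are not in this window.

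*Ms4a3* had one of the lowest changes of all probes in *Pu.1* KD and a small increase in *Gata2* KD. Its protein, also called HTm4, binds a phosphatase of cyclin-dependent kinases and is found in granulocyte and monocyte progenitors. Its level was 5.51, 5.44 and 5.51 in EV replicates 1 to 3, 6.21, 6.06 and 6.16 in *Gata2* KD and 2.24, 2.42 and 2.62 in *Pu.1* KD. The 3 groups did not overlap, and the gap between EV and *Gata2* KD was small beside that between EV and *Pu.1* KD. The mean was 5.49 ± 0.04 in EV, 6.14 ± 0.08 in *Gata2* KD and 2.43 ± 0.19 in *Pu.1* KD (SD, n = 3). *Gata2* KD was 1.58-fold above EV (log2 change 0.66, SE 0.14) and *Pu.1* KD was 8.34-fold below it (log2 change -3.06, same SE). Within the slides the change ranged from 0.55 to 0.77 in *Gata2* KD and from -3.27 to -2.89 in *Pu.1* KD. Only 4 of 36585 tested probes had a lower change than this one in *Pu.1* KD.

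*Ms4a6b* was several-fold higher in *Gata2* KD and several-fold lower in *Pu.1* KD. Its protein is known from T cells and macrophages. It read -0.48, -0.47 and -0.42 in EV, 1.99, 1.57 and 1.57 in *Gata2* KD and -3.88, -3.66 and -3.30 in *Pu.1* KD. All *Gata2* KD arrays lay above EV and all *Pu.1* KD arrays below it, and the EV arrays differed from each other by far less than either gap. The mean was -0.46 ± 0.03 in EV, 1.71 ± 0.25 in *Gata2* KD and -3.61 ± 0.29 in *Pu.1* KD (SD, n = 3). The change was 2.17 in *Gata2* KD (SE 0.19, 4.49-fold higher) and -3.16 in *Pu.1* KD (8.93-fold lower), the second lowest of all tested probes. Within the slides it ranged from 1.99 to 2.46 in *Gata2* KD and from -3.46 to -2.83 in *Pu.1* KD. With normexp background correction, an alternative to the processed signal, the change in *Pu.1* KD was -1.92. The direct difference between the knockdowns, 5.32 or 40.1-fold, was the largest of the 6 genes.

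*Ms4a6c*, the neighbour that shares the promoter run, changed by a similar amount in *Gata2* KD and by less in *Pu.1* KD. It read -2.71, -2.85 and -2.39 in EV, -0.18, -0.07 and -0.23 in *Gata2* KD and -3.35, -3.62 and -3.25 in *Pu.1* KD. The groups did not overlap, but the *Pu.1* KD arrays were close below EV. The means were -2.65 ± 0.24, -0.16 ± 0.08 and -3.41 ± 0.19 (SD, n = 3). *Gata2* KD was 5.61-fold above EV (log2 change 2.49, SE 0.17, 2.31 to 2.67 within slides), and *Pu.1* KD was lower by 0.76 on the log2 scale (0.54 to 0.96 within slides), or by 0.44 with normexp.

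*Ms4a6d*, a gene of macrophages, was higher in *Gata2* KD by a size that depended on the background correction. It read -5.89, -5.40 and -4.23 in EV, -1.63, -2.15 and -1.86 in *Gata2* KD and -6.17, -5.74 and -6.95 in *Pu.1* KD. In *Pu.1* KD the probe was well above background on replicate 2 alone, so the lower side of its range is near the limit of the array. The *Gata2* KD arrays lay above all others. EV replicate 3 was the highest of the EV arrays, and its own lowest measurable level was also the highest of all arrays, at -5.04. The mean was -5.17 ± 0.86 in EV, -1.88 ± 0.26 in *Gata2* KD and -6.29 ± 0.61 in *Pu.1* KD (SD, n = 3). The change in *Gata2* KD was 3.29 (SE 0.45, 9.80-fold, 2.08 to 4.04 within slides), and it was 3.77 without EV replicate 3, 1.87 with the deposited values and 1.40 with normexp. It was the largest of the 6 genes as processed here, but with normexp those of *Ms4a6b* and *Ms4a6c* were larger (2.03 and 1.71). In *Pu.1* KD the change was -1.12, and it was -0.64 without EV replicate 3 and -0.20 with normexp. The difference between the knockdowns, which does not use EV, was 4.41 (4.02 to 5.09 within slides), 2.12 with the deposited values and 1.60 with normexp, and its size rests on *Pu.1* KD readings of which 2 of 3 were not well above background.

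*Ms4a4c*, known from monocytes and from the response to interferon, was higher in *Gata2* KD and overlapped with EV in *Pu.1* KD. It read -4.17, -4.45 and -2.93 in EV, -1.39, -1.66 and -1.38 in *Gata2* KD and -4.03, -4.92 and -4.26 in *Pu.1* KD. EV replicate 3 again stood above its group. The mean was -3.85 ± 0.81 in EV, -1.48 ± 0.16 in *Gata2* KD and -4.41 ± 0.46 in *Pu.1* KD (SD, n = 3). The change in *Gata2* KD was 2.37 (SE 0.39, 5.17-fold, 1.27 to 3.06 within slides), 2.83 without EV replicate 3 and 1.41 with normexp. In *Pu.1* KD it was -0.56, and -0.10 without that array, so the lower mean rested on EV replicate 3. The difference between the knockdowns was 2.93 and ranged from 2.37 to 3.53 within slides, and it was 1.61 with normexp.

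*Ms4a7*, a gene of tissue macrophages, had 2 probes, and both were higher in *Gata2* KD alone. Probe A_51_P277216 read -3.40, -3.89 and -3.24 in EV, -2.74, -2.34 and -2.54 in *Gata2* KD and -3.32, -4.17 and -3.25 in *Pu.1* KD. Probe A_52_P59124 read -5.13, -5.44 and -5.83 in EV, -3.59, -3.50 and -3.65 in *Gata2* KD and -4.85, -6.02 and -4.996 in *Pu.1* KD, with EV replicate 3 and *Pu.1* KD replicate 2 not well above background. The change in *Gata2* KD was 0.97 (SE 0.28, 1.95-fold) by the first probe and 1.88 (SE 0.31, 3.69-fold) by the second. Within slides it ranged from 0.86 to 1.14 by the first and from 1.48 to 2.32 by the second. With normexp the changes were 0.53 and 0.55, so the difference in size between the probes was not kept. In *Pu.1* KD the changes of -0.08 and 0.18 lay within the spread of the arrays.

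**Figure D1:**
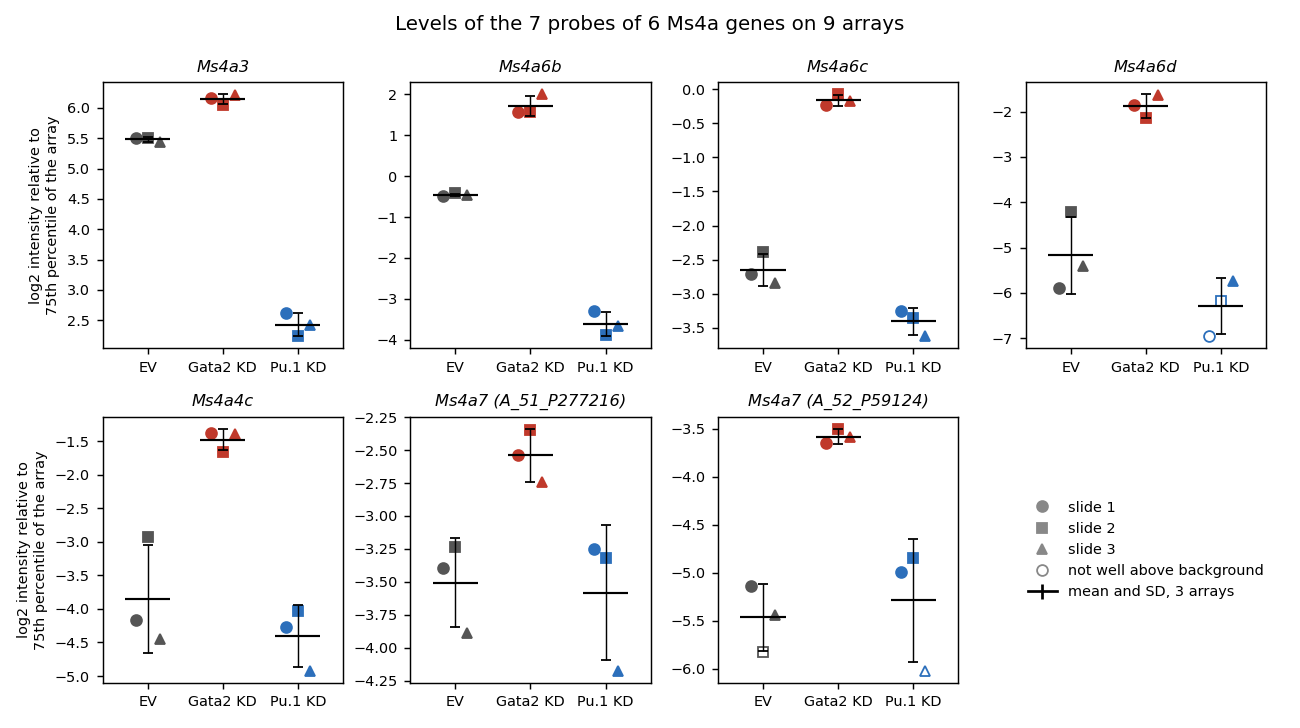
Level of each of the 7 probes on 9 arrays (y axis, log2 units above the array's 75th percentile; each panel has its own scale) in EV, *Gata2* KD and *Pu.1* KD (x axis). Points are arrays with the shape giving the slide, open points are not well above background, and lines with bars are means and SD of 3 arrays. The *Gata2* KD arrays lie above both other groups in all 7 panels. The *Pu.1* KD arrays lie far below EV for *Ms4a3* and *Ms4a6b* and close below it, without overlap, for *Ms4a6c*.

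Over the 7 probes, 6 were called higher in *Gata2* KD than in EV (limma, adjusted p under 0.05 over all tested probes), where 2.96% of tested probes were called higher. The probe outside the call was A_51_P277216 of *Ms4a7*. In *Pu.1* KD 2 probes, those of *Ms4a3* and *Ms4a6b*, were called lower, where 1.42% of tested probes were called lower. In the direct comparison 6 were called higher in *Gata2* KD than in *Pu.1* KD, against 4.86% of tested probes. Groups did not overlap for 7 of 7 probes in *Gata2* KD against EV (7.65% of tested probes, higher), for 3 in *Pu.1* KD against EV (9.32%, lower) and for 7 in the direct comparison (11.8%, higher). With slide as a block the changes are the same and the counts called were 7, 3 and 7. The genes were chosen for this pattern, so nothing is read from these counts. With 1 probe a gene, the median change was 2.27 in *Gata2* KD, -0.94 in *Pu.1* KD and 3.48 between the knockdowns, beside -0.09, -0.04 and -0.03 over 15808 genes.

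The EV level did not lie at the same place between the knockdowns for the 6 genes. On a scale that puts *Pu.1* KD at 0% and *Gata2* KD at 100% for each gene, EV lay at 82.3% for *Ms4a3* and at 59.3% for *Ms4a6b*. It lay at 25.3% for *Ms4a6d*, 23.4% for *Ms4a6c* and 7.31% for *Ms4a7* (probe A_51_P277216), with *Ms4a4c* between *Ms4a6c* and *Ms4a7*. *Ms4a3* was thus near its highest reading in EV and mostly lower after *Pu.1* KD, and the other end of the order was near its lowest reading and mostly higher after *Gata2* KD. Within single slides the value ranged from 79.6% to 85.7% for *Ms4a3* and from 56.5% to 63.5% for *Ms4a6b*, and these ranges did not meet each other or those of the other 4 genes. The ranges of the last 4 met: 18.0% to 29.4% for *Ms4a6c*, 8.40% to 48.4% for *Ms4a6d*, 3.33% to 46.3% for *Ms4a4c* and -20.3% to 20.2% for *Ms4a7*. The second *Ms4a7* probe, A_52_P59124, gave -10.4%, with -72.7% to 24.1% within slides. These positions were taken from the processed signal alone and depend on the background correction. For *Ms4a6b*, normexp changed the fall in *Pu.1* KD from -3.16 to -1.92 and the difference between the knockdowns from 5.32 to 3.96. For *Ms4a6d* the 0% end rests on *Pu.1* KD readings of which 1 was well above background. The positions also use EV replicate 3. Without it the change in *Pu.1* KD went from -0.56 to -0.10 for *Ms4a4c* and from -1.12 to -0.64 for *Ms4a6d*. The positions of *Ms4a4c* and *Ms4a6d* thus rest in part on that array. *Spi1* itself lay at 55.5%, close to *Ms4a6b*.

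**Figure D2:**
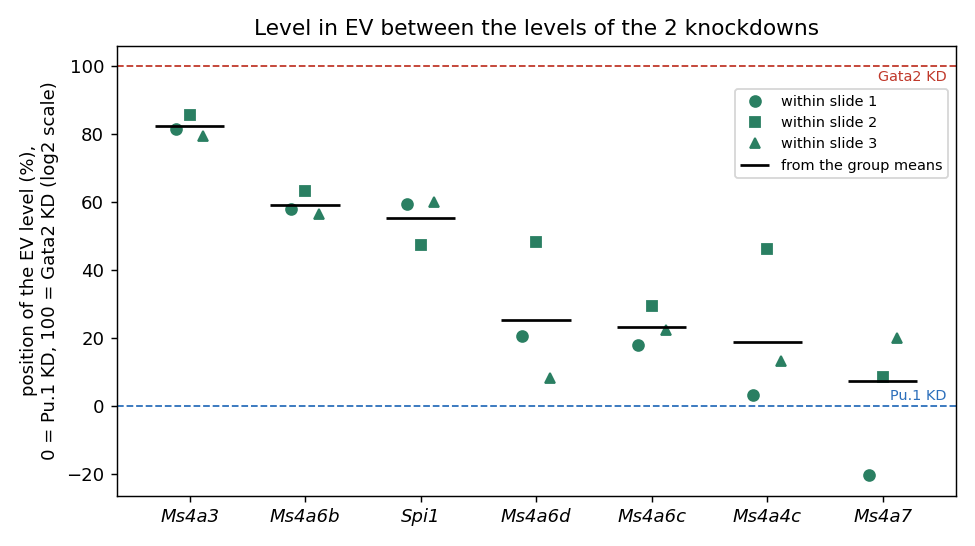
Position of the EV level between the *Pu.1* KD level (0%) and the *Gata2* KD level (100%) on the log2 scale (y axis) for the 6 Ms4a genes and *Spi1* (x axis; *Ms4a7* by probe A_51_P277216). Symbols are the values within each slide and lines the values from the group means. With the processed signal, *Ms4a3* (82.3%) and *Ms4a6b* (59.3%) lie apart from the other 4 Ms4a genes, whose slide values overlap.

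Most of the variation of these probes lay between the groups. The genes were chosen by a difference between groups, so nothing is read from these shares. The share of the sum of squares between groups was 99.6% for *Ms4a3*, 99.3% for *Ms4a6b*, 98.9% for *Ms4a6c*, 93.1% for *Ms4a6d* and 89.1% for *Ms4a4c*. For *Ms4a7* it was 70.7% and 85.9% by its 2 probes, and slides took a further 24.6% by the first. The 15 pairs of genes had correlations from 0.58 to 0.97 over 9 arrays (median 0.88), which is mostly the shared groups that chose them. The deviations of single arrays from their group means, which the choice did not use, correlated from -0.25 to 0.88 with a median of 0.13. The closest pairs by deviations were *Ms4a3* with *Ms4a6b* (0.88), *Ms4a6c* with *Ms4a7* (0.87) and *Ms4a6c* with *Ms4a4c* (0.86), and the arrays of a slide share their hybridisation.

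Some probes of the rest of the family were also called. The gene list names 15 other Ms4a genes in the gene table, and 7 of them had a tested probe. With 1 probe a gene, 0 of 7 were called in *Gata2* KD or in *Pu.1* KD against EV by limma, 3 and 1 had an unadjusted p under 0.05, and 2 were called higher in *Gata2* KD than in *Pu.1* KD. These 2 were *Ms4a4b* (1.01, adjusted p 0.0332) and *Ms4a4d* (2.53, adjusted p 0.0243), and without any 1 array of *Gata2* KD or of *Pu.1* KD between 0 and 1 of them was called. Over 11 probes, 2 were called higher in *Gata2* KD than in EV, where 2.96% of all tested probes were called higher, and 1 was called lower in *Pu.1* KD (1.42% of all). In the direct comparison 4 of 11 were called higher in *Gata2* KD than in *Pu.1* KD (4.86% of all).

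*Ms4a4b*, a T cell gene that lies between *Ms4a4c* and *Ms4a6c*, held the 3 calls against EV. Its probe A_51_P136294 rose by 1.85 in *Gata2* KD (SE 0.24, adjusted p 0.00296) and fell by 1.18 in *Pu.1* KD (adjusted p 0.0465). Probe A_51_P136288 rose by 1.36 in *Gata2* KD (adjusted p 0.0442), a call lost under 9 of 20 other settings, while probes A_51_P136289 and A_52_P306949 had changes of 0.96 and 0.52 that were not called. The fall in *Pu.1* KD was no longer called under 16 of 20 other settings. *Ms4a4d*, next to *Ms4a6d*, had a change of 2.12 in *Gata2* KD by probe A_51_P294505 (SE 0.56, adjusted p 0.080), which was 2.80 with an adjusted p of 0.00401 without EV replicate 3. Its other probe had a change of 0.32.

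*Ms4a2*, which lies between *Ms4a6d* and *Ms4a3*, had changes of -0.94 in *Gata2* KD (SE 0.26, adjusted p 0.093) and -0.76 in *Pu.1* KD (adjusted p 0.226). Neither was called. All 3 arrays lay below EV in *Gata2* KD and also in *Pu.1* KD, where 9.32% of tested probes did so. The B cell gene *Ms4a1* and *Ms4a5*, *Ms4a10* and *Ms4a19* had changes between -0.23 and 0.12 in *Gata2* KD and none was called. The structurally related membrane proteins *Tmem176a* and *Tmem176b* had changes of -0.005 and -0.010 in *Gata2* KD and 0.05 and -0.14 in *Pu.1* KD, none called.

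The 6 genes did not lie in an unbroken row. They were chosen by signal, so which neighbours fall outside the set depends on that choice. In the order of protein-coding genes on chromosome 19, 11 genes ran from *Ms4a7* to *Ms4a3*, of which 6 were the genes described and 5 were not (*Ms4a4a*, *Ms4a4b*, *Gm8369*, *Ms4a4d* and *Ms4a2*). Of these 5, *Ms4a4a* and *Gm8369* had no probe. *Ms4a4b* and *Ms4a4d* had changes of 0.96 and 2.12 in *Gata2* KD, in the direction of the members but not called by these probes. *Ms4a2*, also inside this span, and *Ms4a5*, outside it, were not called. Beyond the family, *Oosp1*, an oocyte-secreted protein gene next but one to *Ms4a3*, fell by 2.10 in *Pu.1* KD (SE 0.19, adjusted p 0.00178) and had a change of 0.22 in *Gata2* KD (adjusted p 0.795). *Oosp3*, *Cblif* and *Mrpl16*, which follow it, were not called in either comparison with EV. These neighbours were chosen by their order alone, 5 genes on each side, after the data had been seen.

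**Figure D3:**
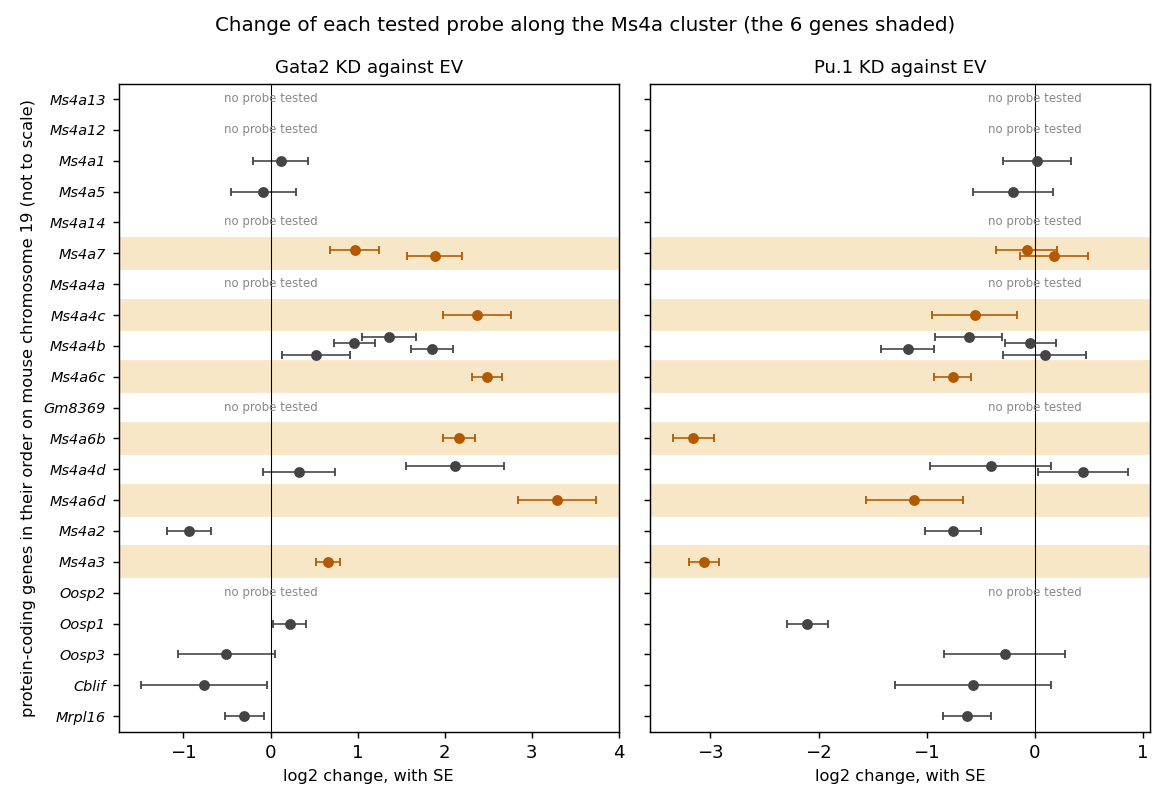
Log2 change with its SE (x axis) of each tested probe in *Gata2* KD (left) and *Pu.1* KD (right) against EV, by gene in its order on mouse chromosome 19 (y axis, not to scale; genes outside the family by 1 probe each). The 6 genes are shaded; both panels use the same EV arrays. *Ms4a3*, *Ms4a6b* and *Oosp1* have the lowest changes in *Pu.1* KD (-3.06, -3.16 and -2.10), and *Ms4a2* is the one Ms4a gene between the shaded ones with a negative change in *Gata2* KD (-0.94).

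A list of partners of Ms4a proteins was made of Fc receptors, dectin, other myeloid receptors and signalling genes. No dectin gene was among those with a probe. The list shares the gene with its lowest change in *Pu.1* KD with the monocyte and macrophage list below, so these lists are not separate. Of 13 listed genes 11 were tested, and 7 were called higher and 1 lower in *Gata2* KD, beside 4.21% and 2.95% of all genes. In *Pu.1* KD 6 were called lower and 0 higher, beside 2.16% and 1.45%. *Fcer1a*, the IgE-binding chain that pairs with the *Ms4a2* product, fell by 2.96 in *Gata2* KD (SE 0.13, adjusted p 1.29e-05) and by 0.70 in *Pu.1* KD (adjusted p 0.033). *Tyrobp*, an adaptor of myeloid receptors, rose by 1.14 in *Gata2* KD (adjusted p 0.00503) and fell by 2.48 in *Pu.1* KD (adjusted p 0.000787). The kinase gene *Syk* rose by 1.33 in *Gata2* KD (adjusted p 0.0102), with -0.56 in *Pu.1* KD (adjusted p 0.333). The shared gamma chain gene *Fcer1g* had changes of 0.06 and -0.07 and was not called.

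Genes much like the set over 9 arrays were taken by the mean of their correlations with the 6 genes, among 15808 genes. They were *Il1r2* (0.923), *Ifi27l2a* (0.923), *Cyp4f18* (0.923) and *Ubl3* (0.923), and the gaps between them were too small to give an order. *Il1r2* encodes a decoy receptor for IL-1. *Ifi27l2a* is induced by interferon, *Cyp4f18* encodes an enzyme that inactivates leukotriene B4, and *Ubl3* a membrane-anchored ubiquitin-like protein. *Ifi27l2a* read -0.92 in EV, 2.50 in *Gata2* KD and -2.86 in *Pu.1* KD as group means, and *Ubl3*, with the narrowest range of the 4, read 0.035, 0.94 and -0.76. *Spi1* had a mean correlation of 0.888 and was at place 280, and *Gata2* had -0.794. These are similarities over 9 arrays in 3 groups and carry no p.

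**Figure D4:**
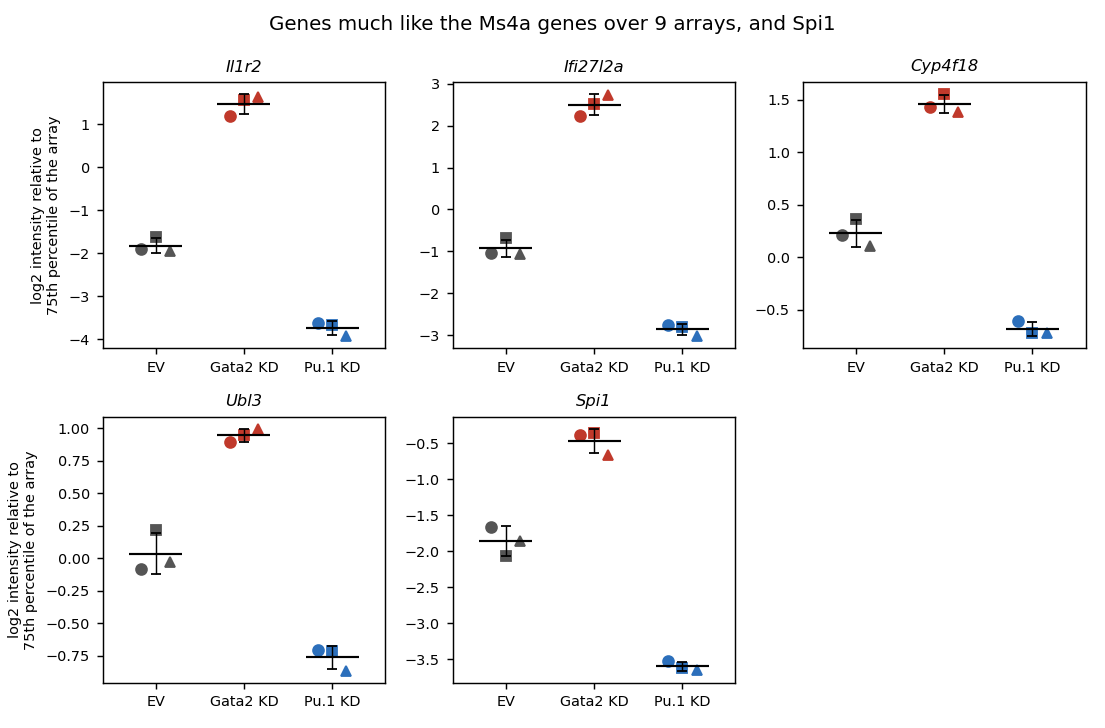
Level (y axis, log2 units above the array's 75th percentile; own scale in each panel) of 4 genes much like the 6 Ms4a genes and of *Spi1* in EV, *Gata2* KD and *Pu.1* KD (x axis). Shapes give the slide (circle 1, square 2, triangle 3), and lines with bars are means and SD of 3 arrays. Each gene is highest in *Gata2* KD and lowest in *Pu.1* KD, with EV between 36.2% (*Ifi27l2a*) and 55.5% (*Spi1*) of the way up.

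Markers of several blood cell types moved with the Ms4a genes, and in bulk RNA a different number of cells of a type and a different amount of RNA per cell cannot be told apart. Of 15 tested monocyte and macrophage genes, 11 were called higher in *Gata2* KD and 4 lower in *Pu.1* KD. Over all genes, 4.21% were called higher in *Gata2* KD and 2.16% lower in *Pu.1* KD. Their mean level lay between -0.98 and -0.60 on the EV arrays, between 1.72 and 1.77 on the *Gata2* KD arrays and between -1.56 and -1.33 on the *Pu.1* KD arrays. *Lyz2*, which encodes lysozyme of macrophages and neutrophils, rose by 2.71 (adjusted p 2.76e-05) and fell by 1.37 (adjusted p 0.00329). Of 13 tested neutrophil granule genes, 11 were called higher in *Gata2* KD and 8 lower in *Pu.1* KD, with *Mpo*, the gene for myeloperoxidase, at 3.08 (adjusted p 1.71e-05) and -2.81 (adjusted p 0.000213). Their mean level lay between -0.39 and -0.11 in EV, 2.39 and 2.54 in *Gata2* KD and -1.37 and -1.35 in *Pu.1* KD.

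The mast cell and basophil list ran the other way in *Gata2* KD. Of 11 tested genes 8 were called lower and 1 higher in *Gata2* KD, and in *Pu.1* KD 3 were called lower and 2 higher. Over all genes, 2.95% were called lower and 4.21% higher in *Gata2* KD. In *Pu.1* KD 2.16% of all genes were called lower and 1.45% higher. The list holds *Gata2* itself, *Fcer1a* and the family gene *Ms4a2*. Its mean level lay between 2.08 and 2.19 in EV, 0.63 and 0.70 in *Gata2* KD and 1.99 and 2.05 in *Pu.1* KD. Of 11 tested erythroid genes 4 were called lower in *Gata2* KD and 3 higher in *Pu.1* KD, with mean levels of -0.81 to -0.29 in EV, -1.11 to -0.97 in *Gata2* KD and -0.26 to -0.11 in *Pu.1* KD. Of 15 tested myeloid transcription factor genes, among them *Spi1*, 10 were called higher in *Gata2* KD, and in *Pu.1* KD 5 were called lower and 1 higher.

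Few lymphoid markers were called against EV. Over all genes, 4.21% were called higher and 2.95% lower in *Gata2* KD, and 1.45% higher and 2.16% lower in *Pu.1* KD. Lists of 9 genes are too short to be set against such shares. The B cell list holds the family gene *Ms4a1*. Of its 9 tested genes 0 were called in *Gata2* KD by limma, with 2 at an unadjusted p under 0.05. In *Pu.1* KD 1 was called (*Cd79b*, which fell by 1.65, adjusted p 0.00351). Of 9 tested T cell genes 1 was called in each comparison with EV, *Thy1* both times, which rose by 1.31 (adjusted p 0.00365) in *Gata2* KD and fell by 1.07 (adjusted p 0.02) in *Pu.1* KD. The mean level of the B cell list lay between -2.83 and -2.05 in EV, -2.80 and -2.11 in *Gata2* KD and -3.04 and -2.18 in *Pu.1* KD. That of the T cell list lay between -1.80 and -1.13 in EV, -1.55 and -1.27 in *Gata2* KD and -1.74 and -1.47 in *Pu.1* KD. The part of cell type composition in the changes of the Ms4a genes was not tested.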

How the data were processed

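RNA of 9 samples was hybridised to Agilent 4x44K whole mouse arrays, 1 array a sample. Per the file headers, the authors' Feature Extraction software (version 10.1.1.1) gave background-subtracted processed intensity for each spot on a design annotated to mm8. The authors' deposited log2 values (array medians 7.00 to 7.05) followed the log2 of the median spot signal across probes (r from 0.997 to 1.000) more closely than that of the processed signal; they were an alternative only, their scaling is not given in the sources used here, and no centring of genes was seen. Control spots and outlier-flagged spots were left out, spots of a probe were averaged, and the log2 of the 75th percentile was subtracted. Probes had to be well above background on at least 3 of 9 arrays. limma 3.58.1 in R 4.3.3 fitted group means to all 9 arrays with eBayes, and Benjamini-Hochberg adjustment ran over 36585 probes. On simulated data for this fit for *Gata2* KD against EV (36525 probes), 74.5% of 200 changed probes were recovered, with 6 false calls. The changes put in were all larger than those of *Ms4a3* and of both *Ms4a7* probes in *Gata2* KD. They were also larger in size than those of all members but *Ms4a3* and *Ms4a6b* in *Pu.1* KD. This share does not hold for such smaller changes, and the simulated spread had no slide effect. The number of arrays limits the precision.

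Probes were named by transcript accession through the RefSeq gene table (GRCm38.p6), which named 23374 of 41174 probes. A gene with several probes was represented in lists by 1 probe, the one with the highest mean level. The files hold no mean spot signal, so normexp (offset 50) used the median signal. Genes named in the text were the 6 Ms4a genes, all other Ms4a genes, the neighbours, the 5 most alike genes (1 of which is not reported here), the targeted genes and up to 4 genes a list with the highest mean level. Members, lists and tests were chosen with earlier results of these data known. The 20 alternatives were the normalizations, filters, blocks and each array left out in turn.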

Additional observations from a re-analysis of the deposited data

How the results depend on the processing

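The counts of called probes of the 6 Ms4a genes stayed within 1.5 times their values under all 20 alternatives: 4 to 7 (6 as reported) in *Gata2* KD against EV, 2 to 3 (2) in *Pu.1* KD against EV and 5 to 7 (6) between the knockdowns. Of 414 single results of the 7 probes under these alternatives, 380 kept their direction and side of the threshold, 16 gained a call, 12 lost it and 6 changed sign. Sizes moved more than calls: with normexp the *Gata2* KD change of *Ms4a6d* fell from 3.29 to 1.40, of *Ms4a4c* from 2.37 to 1.41 and of *Ms4a7* probe A_52_P59124 from 1.88 to 0.55, and the *Pu.1* KD change of *Ms4a6b* went from -3.16 to -1.92. That of *Ms4a4d* (A_51_P294505) in *Gata2* KD went from 2.12 to 0.73 and of *Ms4a4b* (A_51_P136294) from 1.85 to 1.14. In *Gata2* KD the call of *Ms4a3* was lost under 10 alternatives, among them the fit without EV replicate 3. Its change was 0.62 to 0.72 throughout, so it is the least firm of the 6 calls. The call of *Ms4a7* probe A_52_P59124 was lost without *Gata2* KD replicate 2 (1.85). The call of that probe between the knockdowns was lost with quantile normalization (1.63). In *Pu.1* KD the change of *Ms4a6c* was called with quantile normalization, the filter on all 9 arrays, the deposited values and slide as a block. The counts over all tested probes ranged from 1072 to 2886 (1902) in *Gata2* KD, 223 to 1875 (986) in *Pu.1* KD and 2206 to 5168 (3524) between the knockdowns.

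Of the 7 other Ms4a genes, 0 were called in *Gata2* KD as reported. The count was 2 with quantile normalization, scaling to the median, slide as a block, and trend and robust settings, 1 with normexp, the filter on all 9 arrays and the deposited values, and 0 to 1 with single arrays left out (1 without EV replicate 1 or EV replicate 3). Between the knockdowns 2 were called, 1 with the filter on all 9 arrays, and 0 to 2 with single arrays left out. It was 0 without *Gata2* KD replicate 1, 2 or 3 or *Pu.1* KD replicate 1 or 2, and 1 without *Pu.1* KD replicate 3. The cause was not tested.

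None of the changes that reversed was called, as reported or under these alternatives. In *Pu.1* KD *Ms4a7* by A_51_P277216 (-0.08) was 0.096 with quantile normalization, 0.017 with the deposited values and -0.27 to 0.22 with single arrays left out, positive without EV replicate 3 or *Pu.1* KD replicate 2. By A_52_P59124 (0.18) it was -0.043 to 0.54, negative without EV replicate 3 or *Pu.1* KD replicate 1. With single arrays left out, *Ms4a4b* was -0.21 to 0.17 by A_51_P136289 (-0.04; positive without EV replicate 1 or *Pu.1* KD replicate 2) and -0.24 to 0.39 by A_52_P306949 (0.09; negative without EV replicate 2 or *Pu.1* KD replicate 3). *Ms4a4d* by A_51_P294505 (-0.41) was -1.05 to 0.27, positive without EV replicate 3. Between the knockdowns *Ms4a2* (-0.18) was -0.40 to 0.041, positive without *Pu.1* KD replicate 1. *Ms4a4d* by A_52_P211956 (-0.12) was -0.59 to 0.16, positive without *Gata2* KD replicate 1 or *Pu.1* KD replicate 1 or 3.

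No pairing by replicate number was seen across slides. Deviations of same-numbered arrays on different slides correlated from -0.55 to 0.35, and those of different-numbered arrays from -0.63 to 0.35. The 2 same-numbered pairs on a shared slide (0.52 and 0.65) cannot tell number from slide. With the replicate number as a block, 1 other Ms4a gene was called between the knockdowns, against 2 without the block, and the call of *Ms4a3* in *Gata2* KD was lost. The median change of all probes in *Gata2* KD was -0.09 as reported and between -0.05 and -0.02 under the other scalings. The lowest readings, those of *Ms4a6d* and *Ms4a7* in *Pu.1* KD, are limited by the signal over background.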
